A study of Mus musculus with 33 samples.

Results

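Embryoid bodies (EBs) grown from mouse embryonic stem cell (mESC) clones with a CRISPR deletion in Neil2 were compared with EBs grown from control clones. The comparison comprised the 6 libraries that the sample labels assign to these groups, 3 per group, out of 33 libraries in the series, and no measured value entered the choice. All lines derive from E14TG2a, a feeder-free mESC line. Control clones #1, #4 and #7 had received the Cas9 plasmid without a guide, and Neil2 clones #1, #11 and #14 the same plasmid with guides against Neil2, both followed by puromycin selection. Both groups were differentiated for 8 days without retinoic acid (RA), and RNA was taken from whole EBs. Each line is 1 clone and each clone gave 1 EB library, so that n = 3 clones per group, and the genotype and the history of a clone cannot be told apart within a line. In such bulk RNA, fewer cells of a type and less RNA per cell cannot be told apart either.

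NEIL2 is a DNA glycosylase of the base excision repair pathway. It removes oxidised pyrimidines and, in biochemical assays, helps the glycosylase TDG to complete the excision of 5-formylcytosine and 5-carboxylcytosine, the last products of TET-driven oxidation of 5-methylcytosine. EBs are aggregates of mESCs that leave pluripotency and form derivatives of the germ layers without an imposed pattern. A primitive streak-like population marked by T and Mixl1 arises first under Wnt, Nodal and BMP signals and gives rise to mesoderm and endoderm, while cells that escape these signals tend to become neuroectoderm. The study asked whether loss of NEIL2 disturbs differentiation, and the comparison addresses which lineages and pathways differed in EBs that received no inducer, and how alike the Neil2 clones were.

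The guides are shown because they define what the mutation removes and what a read count can show of it. Both match the minus strand of chromosome 14 in the mouse build NCBIM37, within Neil2 (14:63801280-63812378, 5 exons), and the capitals mark the PAM next to each target.
Neil2 guide 1, chr14:63810934-63810953: gctgtgtggttaaggctgagGGG
Neil2 guide 2, chr14:63810347-63810366: gctgtgaagaatgtctgaaaAGG
The expected cuts lie after positions 63810936 and 63810349 and enclose 587 bp (chr14:63810350-63810936). This interval holds the whole of exon 2 (63810542 to 63810695), the first coding exon, with 154 of the 1932 exonic bases (7.97%) and 138 of the 987 coding bases. The remaining exons lie outside, so the gene-level count cannot check the deletion. Neil2 was measured at 6.21, 8.04 and 10.2 CPM in the control clones and 17.4, 6.46 and 8.95 CPM in the Neil2 clones, n = 3 clones each. Neil2 clone #1 lay above all controls and the other Neil2 clones within their range, and the log2 fold change was 0.43 (SE 0.36, FDR 0.5), which did not pass.

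The 6 libraries held 23861038 to 48350904 counts on genes, with 14.47% to 16.72% of reads not uniquely placed. Values below are CPM, counts relative to the library total after scaling by edgeR's TMM factors, always in the order control clones #1, #4 and #7 and Neil2 clones #1, #11 and #14, and the FDR is the Benjamini-Hochberg adjusted p of edgeR's quasi-likelihood test over 15575 genes. A gene is called differentially expressed (DE), raised or lowered at FDR below 0.1 with a log2 fold change beyond 0.5 in either direction. The control EBs held transcripts of several lineages at once. Of markers of defined cell types, Pou5f1, a core pluripotency factor, stood at 398, 379 and 384 CPM, the streak marker Mixl1 at 99.4, 62.3 and 103 CPM, the endothelial receptor gene Kdr at 41.1, 29.3 and 37.1 CPM, and the visceral endoderm marker Afp at 79.1, 40.7 and 196 CPM. Some markers of blood, neurons, the beating heart and macrophages were near 0 in all 6 libraries. They reached at most 2.22 CPM for the embryonic globin Hbb-bh1, 0.384 CPM for the neuronal Dcx, 0.645 CPM for Nkx2-5 and 0.0927 CPM for Tyrobp. Other neuronal genes were well above 0. The neuronal list described below summed to 235, 231 and 214 CPM in the control clones, with Ina at 41.1, 39.5 and 27.6 CPM. Neil2 clone #1 stood apart from Neil2 clones #11 and #14, as detailed below.

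In Neil2-deficient EBs 2545 of 15575 genes were DE (16.3%). Of these, 1347 were raised (8.65%) and 1198 lowered (7.69%), and 1388 moved by more than 1 on the log2 scale. The large changes went mostly down, since 296 genes fell and 63 rose by more than 2 on the log2 scale. All Neil2 clones lay beyond all controls for 5163 genes (33.1%), which included 2498 of the DE genes. Absence of overlap between the groups therefore adds little to the call of a DE gene below. For the largest rises and falls it was a condition of their choice. An unadjusted p below 0.05 was reached by 4187 genes, and the median log2 fold change over all genes tested was 0.02. Without control clone #1 or #4 the DE genes numbered 1420 and 1407, and without Neil2 clone #14 they numbered 1532, whereas 3705 genes passed without Neil2 clone #1. The percentages of genes raised and lowered are the background for every list of genes below.

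**Figure D1:**
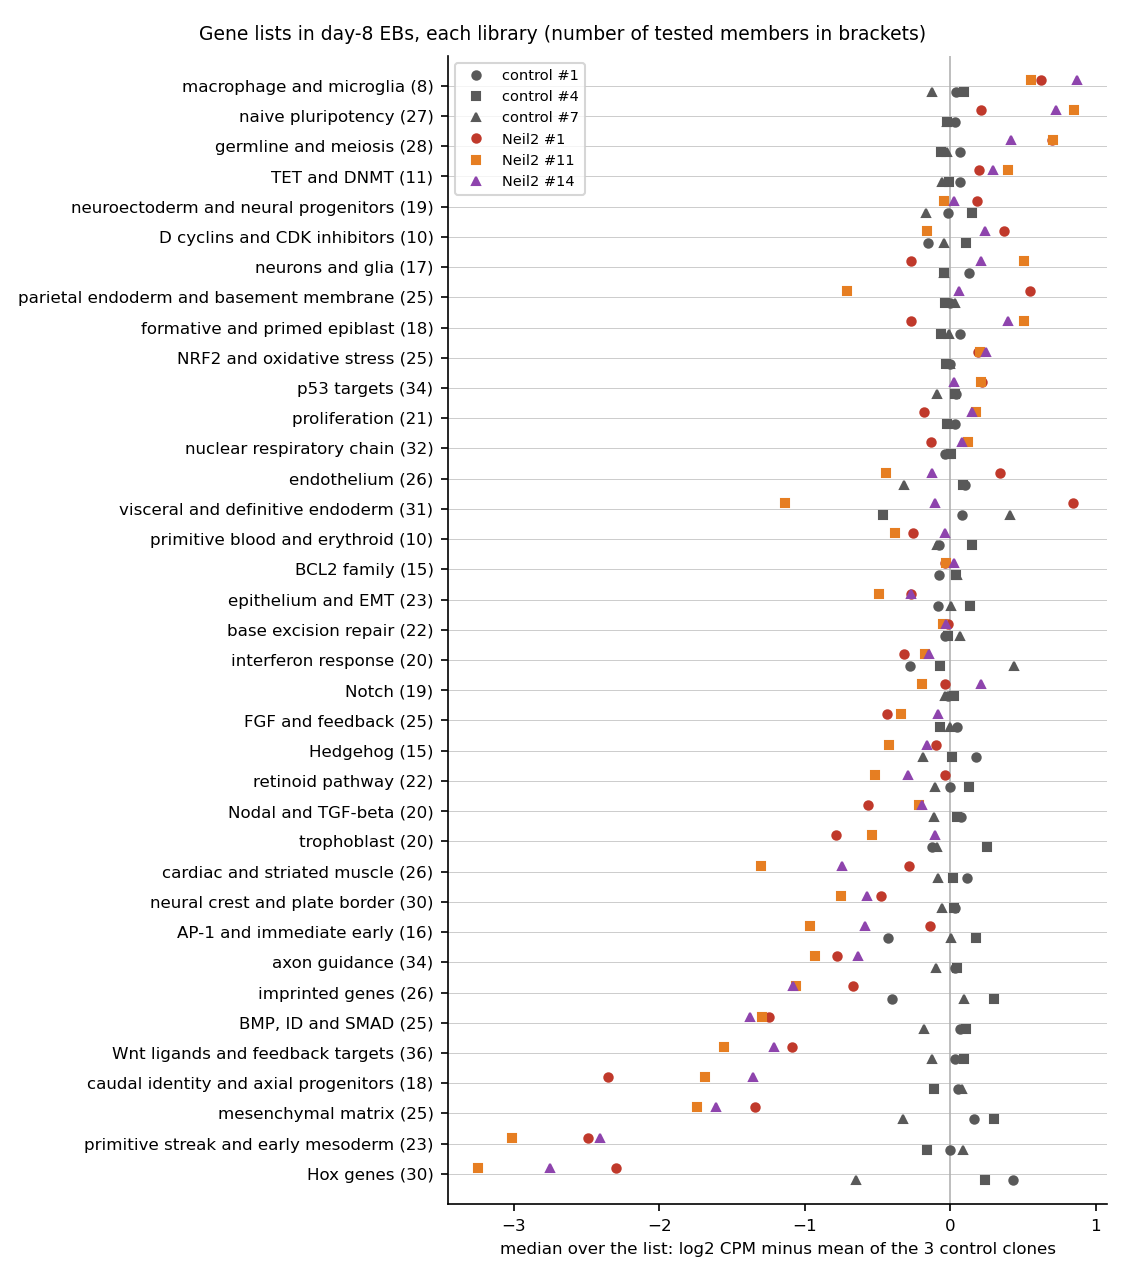
Median over the tested members of each gene list of the log2 CPM difference from the mean of the control clones, with 1 point per library and the lists ordered by their median fold change. Grey points are the control clones and coloured points the Neil2 clones; the Hox, streak, matrix, caudal, Wnt and BMP lists lie to the left of all controls in all 3 Neil2 clones, and the naive pluripotency and germline lists lie to the right.

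Primitive streak and early mesoderm genes fell by large amounts. Of 23 tested members of this list 17 fell and 1 rose, with a median log2 fold change of −2.67. T, the T-box factor of the streak and notochord, was at 66.9, 67.4 and 112 CPM in controls against 0.618, 4.01 and 2.71 CPM in Neil2 clones, giving a log2 fold change of −5.11 (SE 0.54, FDR 0.000911). Mixl1, a homeobox factor of the nascent mesendoderm, was at 99.4, 62.3 and 103 CPM in control EBs and 2.41, 1.55 and 2.45 CPM in Neil2-deficient EBs, giving a log2 fold change of −5.36 (SE 0.27, FDR 3.52e-05). For both genes the lowest control was more than an order of magnitude above the highest Neil2 clone. Eomes, a T-box factor that specifies mesendoderm, was at 106, 82.1 and 114 CPM in the control clones and 27, 32.6 and 32.6 CPM in the Neil2 clones, and its fold change of −1.71 (SE 0.16, FDR 0.000504) was smaller than those of T and Mixl1. The mesodermal bHLH factor Hand1 fell from 86.6, 105 and 86.2 CPM in controls to 7.67, 5.68 and 10.5 CPM in Neil2 clones, giving a log2 fold change of −3.54 (SE 0.22, FDR 9.5e-05). Its paralogue Hand2 fell from 10.4, 13.5 and 2.79 CPM to 0.155, 0.0409 and 0.0861 CPM, giving a log2 fold change of −6.43 (SE 0.74, FDR 0.00142). Evx1, a homeobox gene of the posterior streak, and Foxf1, a forkhead factor of lateral plate mesoderm, gave log2 fold changes of −5.54 (FDR 9.5e-05) and −5.28 (FDR 0.00243). None of these genes had overlapping groups. The loss was seen in each clone, since the list median lay at −2.49, −3.02 and −2.40 against the control mean, and from 16 without control clone #1 to 18 without Neil2 clone #1 members were lowered in the fits that left out 1 library. Summed over the list, the transcripts amounted to 619.8, 566 and 667 CPM in the control clones and 119, 99.8 and 127 CPM in the Neil2 clones.

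Genes of caudal identity and axial progenitors fell with them. 10 of 18 tested members were lowered, 1 was raised, and the median was −1.46. Cdx2, a caudal homeobox factor upstream of the posterior Hox genes, was at 79.4, 72.9 and 46.9 CPM in controls against 1.18, 2.00 and 1.59 CPM in Neil2 clones, giving a log2 fold change of −5.40 (SE 0.28, FDR 3.75e-05). Nkx1-2, a marker of neuromesodermal progenitors, was at 21.2, 15.6 and 6.33 CPM in control EBs and 0.124, 0.245 and 0.258 CPM in Neil2-deficient EBs, giving a log2 fold change of −6.13 (SE 0.56, FDR 0.000504). Both were low in every Neil2 clone, and control clone #7 was the lowest control for each. Cyp26a1, which degrades RA in the tail bud, was at 93.9, 86.4 and 115 CPM in the control clones and 85, 23.3 and 56.7 CPM in the Neil2 clones, and this difference of −0.84 (SE 0.38, FDR 0.196) did not pass although no Neil2 clone reached the lowest control.

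The Hox genes, which encode position along the body axis, had the lowest median of all lists, −2.89, with 25 of 30 tested members lowered and none raised. Hoxa9 was at 15.2, 12 and 5.87 CPM in controls against 0.402, 0.123 and 0.0861 CPM in Neil2 clones, giving a log2 fold change of −5.63 (SE 0.56, FDR 0.000741), and Hoxd9 at 13.8, 15.6 and 9.65 CPM in control EBs and 0.68, 0.45 and 0.602 CPM in Neil2-deficient EBs, giving a log2 fold change of −4.47 (SE 0.29, FDR 0.000108). Hoxc8 was at 9.32, 7.93 and 3.11 CPM in the control clones and 0.155, 0 and 0.043 CPM in the Neil2 clones, giving a log2 fold change of −6.46 (SE 0.71, FDR 0.00112). The posterior genes Hoxc11, Hoxd10 and Hoxa11 gave log2 fold changes of −6.36 (FDR 0.0054), −6.10 (FDR 0.00172) and −5.97 (FDR 0.00081). Control clone #7 had the lowest Hox expression of the controls, with a list median of −0.65 against 0.43 and 0.24 in control clones #1 and #4, yet every Neil2 clone lay further down, at −2.29, −3.25 and −2.75. The number of Hox genes lowered ranged from 19 without control clone #1 to 32 without Neil2 clone #1. The summed Hox transcripts were 166, 144 and 78.7 CPM in the control clones and 28.2, 16.8 and 16.3 CPM in the Neil2 clones.

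**Figure D2:**
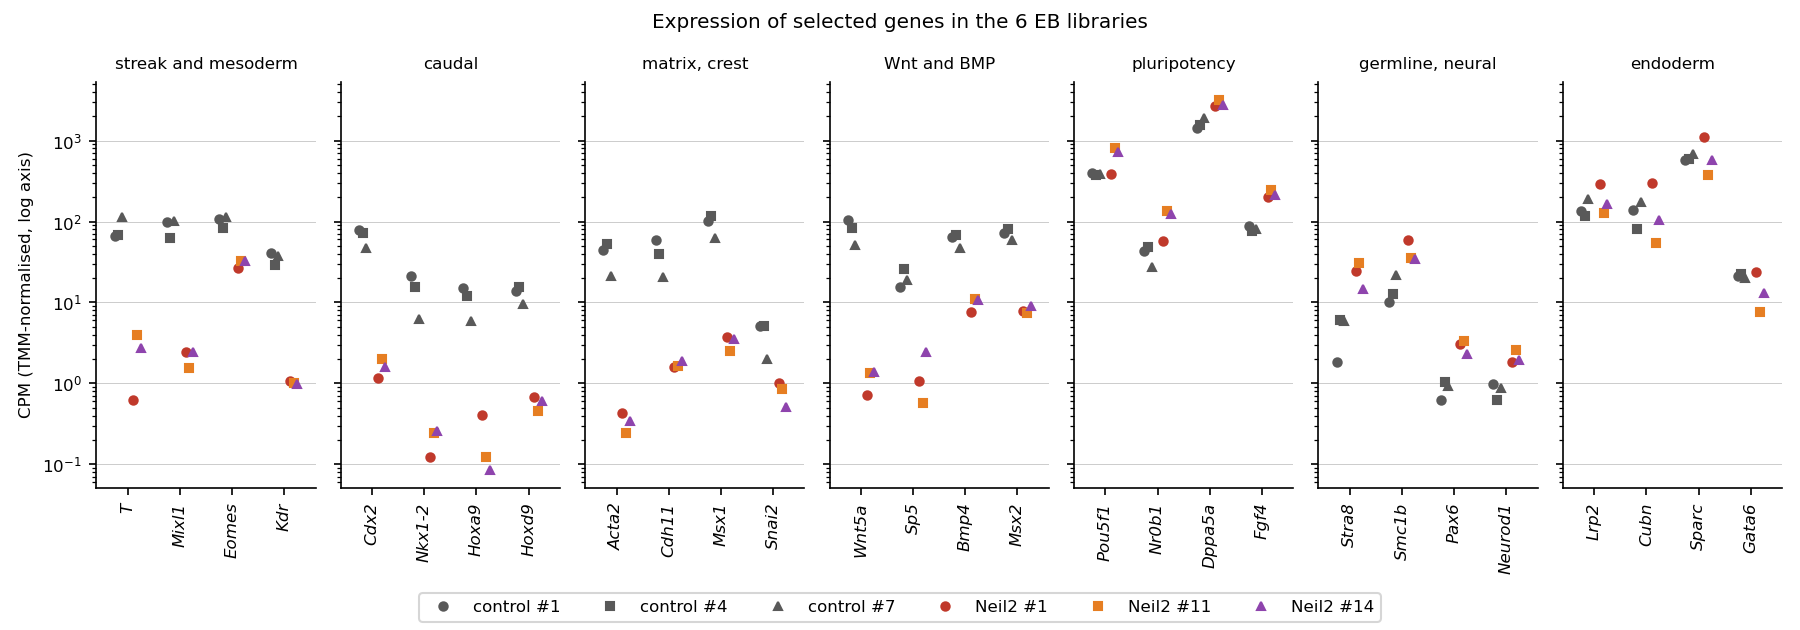
CPM of 28 genes in each library on a log axis, grouped by lineage or pathway, with control clones in grey and Neil2 clones in colour. The 16 streak, caudal, matrix, crest, Wnt and BMP genes lie lower in all Neil2 clones without overlap, the 4 germline and neural genes lie higher, and in the 4 endoderm genes Neil2 clone #1 lies above all controls and the other Neil2 clones do not.

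Among heart and muscle genes, 9 of 26 fell and 2 rose (1 with any control clone left out, 4 without Neil2 clone #1), with a median of −0.47. The falls were led by genes of smooth and early cardiac muscle. Acta2, smooth muscle actin, was at 44.1, 52.5 and 21 CPM in controls against 0.433, 0.245 and 0.344 CPM in Neil2 clones, giving a log2 fold change of −6.80 (SE 0.44, FDR 0.0001), and Tagln, an actin-binding protein of smooth muscle, at 130.4, 129 and 128 CPM in control EBs and 10.7, 6.21 and 8.48 CPM in Neil2-deficient EBs, giving a log2 fold change of −3.93 (SE 0.20, FDR 3.52e-05). Both were low in every Neil2 clone. Actc1, cardiac actin, gave a log2 fold change of −5.54 (FDR 0.000117). The list was uneven between clones, with medians of −0.29, −1.30 and −0.74, and the number of members lowered rose to 15 without Neil2 clone #1.

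The endothelial list split by member. Of 26 tested genes 9 fell and 7 rose, and the median was 0.0047. The number raised was 4 without control clone #4, control clone #7 or Neil2 clone #14. Kdr, the VEGF receptor that marks the earliest haemato-endothelial mesoderm, was at 41.1, 29.3 and 37.1 CPM in the control clones and 1.08, 1.02 and 0.99 CPM in the Neil2 clones, giving a log2 fold change of −5.11 (SE 0.21, FDR 1.76e-05). The VEGF co-receptor Nrp1 was at 63.7, 52.3 and 17.8 CPM in controls against 0.989, 1.06 and 0.947 CPM in Neil2 clones, giving a log2 fold change of −5.48 (SE 0.49, FDR 0.000459), and the ETS factor Fli1 gave a log2 fold change of −5.37 (FDR 0.00771). Aplnr, the apelin receptor, was at 10.2, 9.26 and 13.4 CPM in control EBs and 0.124, 0 and 0 CPM in Neil2-deficient EBs, giving a log2 fold change of −7.68 (SE 0.58, FDR 0.000203). All are also made in nascent mesoderm, and the groups did not overlap for any of them. Flt1, a VEGF receptor also made by trophoblast and parietal endoderm, stood at 48.8, 51.5 and 26.1 CPM in the control clones and 15.4, 8.79 and 13 CPM in the Neil2 clones, giving a log2 fold change of −1.76 (SE 0.29, FDR 0.0064). Pecam1, an adhesion protein of both endothelium and mESCs, was at 39, 39.9 and 36.7 CPM in controls against 58.2, 88.7 and 80 CPM in Neil2 clones, giving a log2 fold change of 0.97 (SE 0.16, FDR 0.00668). Of 10 tested genes of the blood list 3 fell. Lmo2, a partner of TAL1 in blood and vessel progenitors, was at 9.63, 6.78 and 5.13 CPM in control EBs and 0.649, 0.736 and 0.602 CPM in Neil2-deficient EBs, giving a log2 fold change of −3.43 (SE 0.32, FDR 0.000529), and Runx1, required for definitive blood, at 28.7, 28 and 14.6 CPM in the control clones and 6.25, 1.06 and 2.02 CPM in the Neil2 clones, giving a log2 fold change of −2.90 (SE 0.57, FDR 0.0126). Tal1 itself was at 3.52, 2.19 and 0.636 CPM in controls against 0.495, 0.572 and 0.689 CPM in Neil2 clones, giving a log2 fold change of −1.88 (SE 0.57, FDR 0.0656), and the call was lost without control clone #1, control clone #4, Neil2 clone #11 or Neil2 clone #14 (log2 fold changes of −2.0 to −1.27 there). Without the filter on low counts Runx1 did not pass (FDR 0.11). The globin genes were at or near 0 in both groups and only 10 of the 21 members of the list could be tested.

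Genes of mesenchymal cells and their matrix were also widely lowered. 16 of 25 tested members fell, 2 rose (at most 1 with any library left out), and the median was −1.63. Tnc, tenascin C, was at 16.8, 17.6 and 9.51 CPM in control EBs and 0.0309, 0.123 and 0.043 CPM in Neil2-deficient EBs, giving a log2 fold change of −7.78 (SE 0.47, FDR 7.86e-05). Col1a1, the main fibrillar collagen chain, was at 171, 188 and 93.6 CPM in the control clones and 4.39, 1.43 and 2.15 CPM in the Neil2 clones, giving a log2 fold change of −5.79 (SE 0.44, FDR 0.000203). Col3a1 was at 8.60, 11.3 and 2.65 CPM in controls against 0, 0.0818 and 0.129 CPM in Neil2 clones, giving a log2 fold change of −6.80 (SE 0.82, FDR 0.00171), and the bHLH factor Twist2 gave a log2 fold change of −5.33 (FDR 0.000773). The intermediate filament gene Vim was at 366, 436 and 238 CPM in control EBs and 35.5, 48.5 and 40 CPM in Neil2-deficient EBs, giving a log2 fold change of −3.07 (SE 0.24, FDR 0.000227), and Fn1, fibronectin, at 1569, 1350.0 and 1149 CPM in the control clones and 573, 567 and 549 CPM in the Neil2 clones, giving a log2 fold change of −1.27 (SE 0.14, FDR 0.00117). Every Neil2 clone was below every control for these genes. The summed level of the list was 2647, 2534 and 1874 CPM in the control clones and 969, 852 and 853 CPM in the Neil2 clones.

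In the list of epithelial and epithelial-to-mesenchymal transition (EMT) genes, 10 of 23 fell and 2 rose (1 without control clone #1 or Neil2 clone #14), and the median was −0.071. The members named next are mesenchymal regulators and cadherins, and the 2 raised members are not among them. The EMT repressor Zeb2 was at 11.1, 12.3 and 9.05 CPM in controls against 0.649, 0.531 and 0.775 CPM in Neil2 clones, giving a log2 fold change of −4.04 (SE 0.26, FDR 0.0001). Cdh2, the mesenchymal cadherin, was at 121, 102 and 77.2 CPM in control EBs and 11.7, 8.87 and 13 CPM in Neil2-deficient EBs, giving a log2 fold change of −3.16 (SE 0.21, FDR 0.000116). Snai2, a further EMT repressor, was at 5.06, 5.18 and 1.98 CPM in the control clones and 1.02, 0.858 and 0.516 CPM in the Neil2 clones, giving a log2 fold change of −2.33 (SE 0.44, FDR 0.0109). The epithelial cadherin Cdh1 was at 291, 300.2 and 336 CPM in controls against 404, 451 and 418 CPM in Neil2 clones, a log2 fold change of 0.46 (SE 0.12, FDR 0.0402) that stayed under the limit of 0.5.

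Neural crest and plate border genes followed the mesenchymal pattern in part. 12 of 30 tested members fell and 2 rose, with a median of −0.53, and the number lowered ranged from 9 without control clone #4 to 15 without Neil2 clone #1. None was raised with a control clone left out or without Neil2 clone #14, 1 without Neil2 clone #11 and 4 without Neil2 clone #1. Msx1, a homeobox target of BMP signalling at the plate border and in mesoderm, fell from 102, 117 and 62.6 CPM in controls to 3.71, 2.49 and 3.49 CPM in Neil2 clones, giving a log2 fold change of −4.85 (SE 0.28, FDR 6.68e-05). Its paralogue Msx2 fell from 71.8, 81 and 59.6 CPM to 7.82, 7.48 and 8.91 CPM, giving a log2 fold change of −3.13 (SE 0.16, FDR 3.57e-05). Neither had a Neil2 clone near a control. Cdh11, a cadherin of migrating crest and mesenchyme, was at 58.4, 39.5 and 20.9 CPM in control EBs and 1.58, 1.64 and 1.89 CPM in Neil2-deficient EBs, giving a log2 fold change of −4.54 (SE 0.38, FDR 0.000353). Sox9 was at 2.53, 3.56 and 1.49 CPM in the control clones and 0.34, 0.245 and 0.172 CPM in the Neil2 clones, giving a log2 fold change of −3.27 (SE 0.45, FDR 0.00292). Pax3, the paired-box factor the study used to follow the crest, was scarce, at 0.748, 1.33 and 1.13 CPM in controls against 0.433, 0.0818 and 0.0861 CPM in Neil2 clones. Its fold change of −2.28 (SE 0.59, FDR 0.0377) did not pass without control clone #4 or Neil2 clone #14 (log2 fold changes of −2.10 to −1.95 there). Most crest genes named here are also made in mesoderm, and markers of mesoderm moved with them (17 of 23 lowered, as above). Their part in the crest result was not tested.

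Trophoblast genes showed 7 falls and 1 rise among 20 tested members. No member rose in the fits that left out a control clone or Neil2 clone #14, and 4 rose without Neil2 clone #1. The falls named by the rule were genes shared with other lists (Cdx2, Hand1, Eomes and Krt8), and the placental markers Prl3d1 and Tpbpa were near 0 in both groups. The simple epithelial keratins fell together. Krt8 was at 696, 1069 and 835 CPM in control EBs and 327, 155 and 259 CPM in Neil2-deficient EBs, giving a log2 fold change of −1.81 (SE 0.27, FDR 0.00436), and Krt18 at 401, 600.4 and 649 CPM in the control clones and 294, 116 and 180.2 CPM in the Neil2 clones, giving a log2 fold change of −1.49 (SE 0.32, FDR 0.0195). In both, Neil2 clone #1 lay nearest the controls and clone #11 farthest. Krt19 gave a log2 fold change of −1.52 (FDR 0.018).

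Among the signalling pathways, the Wnt and BMP lists had the lowest medians. Of 36 tested Wnt ligands, receptors and targets 20 fell and 3 rose, the median was −1.27, and the number lowered ranged from 15 without Neil2 clone #14 to 24 without Neil2 clone #1. Among ligands, Wnt5a, which drives non-canonical signalling in posterior mesoderm, was at 106, 82.1 and 51 CPM in controls against 0.711, 1.35 and 1.38 CPM in Neil2 clones, giving a log2 fold change of −6.15 (SE 0.36, FDR 6.73e-05). Wnt3, the ligand that induces the primitive streak, was at 38.7, 29.1 and 30.5 CPM in control EBs and 2.01, 2.78 and 2.93 CPM in Neil2-deficient EBs, giving a log2 fold change of −3.68 (SE 0.21, FDR 6.73e-05). Both ligands were at low levels in all Neil2 clones. Among targets, Sp5, a zinc-finger factor induced by beta-catenin, was at 15.4, 26 and 19 CPM in the control clones and 1.08, 0.572 and 2.41 CPM in the Neil2 clones, giving a log2 fold change of −3.91 (SE 0.45, FDR 0.00142), and Axin2, the feedback inhibitor, at 101, 83.3 and 65 CPM in controls against 18.4, 19.7 and 22.2 CPM in Neil2 clones, giving a log2 fold change of −2.05 (SE 0.18, FDR 0.000399). The receptor and stem cell marker Lgr5 gave a log2 fold change of −4.62 (FDR 0.0022) and the secreted antagonist Dkk2 gave a log2 fold change of −4.52 (FDR 0.00146). The members with the highest CPM did not pass. The receptor gene Fzd7 was at 142, 144 and 150.5 CPM in control EBs and 166, 169 and 170.5 CPM in Neil2-deficient EBs, and the nuclear factor Tcf7 at 109.7, 99.8 and 115 CPM in the control clones and 114, 85.8 and 87.8 CPM in the Neil2 clones.

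BMP ligands and targets fell as well, with 15 of 25 tested members lowered, none raised and a median of −1.26. The ligand Bmp4, which patterns posterior mesoderm, was at 64.5, 68.3 and 47.7 CPM in controls against 7.61, 11 and 10.6 CPM in Neil2 clones, giving a log2 fold change of −2.63 (SE 0.20, FDR 0.00021). Bmp5 was at 1.90, 2.22 and 2.05 CPM in controls and had no count in any Neil2 clone, which makes it at least 17.9-fold lower against a floor of 3 counts per Neil2 library. The ID genes are immediate targets of SMAD1 and SMAD5. Id1 was at 86.2, 128 and 91.4 CPM in control EBs and 56.6, 27.6 and 38.6 CPM in Neil2-deficient EBs, giving a log2 fold change of −1.31 (SE 0.26, FDR 0.0135), and Id3 at 104, 124 and 94.2 CPM in the control clones and 36, 26.6 and 35.2 CPM in the Neil2 clones, giving a log2 fold change of −1.72 (SE 0.16, FDR 0.000603). The receptor Bmpr1a was at 115, 115 and 103 CPM in controls against 77.3, 105 and 85.7 CPM in Neil2 clones and did not pass, with a log2 fold change of −0.31 (SE 0.14, FDR 0.191). Tbx3, a T-box factor of BMP-responsive tissues and of naive mESCs, was at 129.8, 127 and 111 CPM in control EBs and 109, 135 and 109 CPM in Neil2-deficient EBs, with a log2 fold change of −0.062 (SE 0.13, FDR 0.818).

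The Nodal and TGF-beta list was mixed, with 7 of 20 lowered and 2 raised. Without control clone #4 only 4 were lowered, and 5 were raised without Neil2 clone #1 against 1 without any other library. Tgfb2 was at 76.5, 70.5 and 38.3 CPM in the control clones and 0.216, 1.19 and 0.904 CPM in the Neil2 clones, giving a log2 fold change of −6.39 (SE 0.49, FDR 0.000215), and Tgfb1 at 28.5, 35.1 and 31.9 CPM in controls against 7.67, 2.21 and 3.62 CPM in Neil2 clones, giving a log2 fold change of −2.80 (SE 0.39, FDR 0.00305). Tgfbi, a matrix protein induced by TGF-beta, gave a log2 fold change of −2.61 (FDR 0.0046). Inhbb, which encodes an activin subunit, rose instead, from 0.566, 1.07 and 0.778 CPM to 2.35, 6.01 and 2.58 CPM, giving a log2 fold change of 2.19 (SE 0.45, FDR 0.0149). Tdgf1, the Nodal co-receptor, was at 319, 324 and 401 CPM in control EBs and 374, 594 and 483 CPM in Neil2-deficient EBs, with a log2 fold change of 0.47 (SE 0.18, FDR 0.138). Neil2 clone #1 lay within the control range and clones #11 and #14 above it.

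Among FGF ligands and feedback genes 5 of 25 fell and 1 rose, and 2 rose without Neil2 clone #1 or #11. Fgf8, a streak and tail bud ligand, was at 34.1, 55.6 and 51.7 CPM in the control clones and 2.94, 5.64 and 8.65 CPM in the Neil2 clones, giving a log2 fold change of −3.05 (SE 0.37, FDR 0.00172). Fgf3 and Fgf10, ligands of caudal and lateral mesoderm, gave log2 fold changes of −2.10 (FDR 0.00357) and −2.96 (FDR 0.00156). Spred1, an inhibitor of the pathway, was at 107, 102 and 103 CPM in controls against 26.5, 38.7 and 29.9 CPM in Neil2 clones, giving a log2 fold change of −1.72 (SE 0.15, FDR 0.000459). Fgf4, the ligand made by undifferentiated epiblast and mESCs, was the member that rose, from 86.8, 76.2 and 81 CPM to 200.1, 247 and 214 CPM, giving a log2 fold change of 1.44 (SE 0.13, FDR 0.000444). All Neil2 clones lay above all controls for it.

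Notch genes moved both ways, with 7 raised and 5 lowered of 19. Without Neil2 clone #14 these numbers were 4 and 3, 4 rose without control clone #1, and 3 fell without control clone #4. The receptor Notch4 was at 13, 13.8 and 15.1 CPM in control EBs and 23.7, 41 and 40.3 CPM in Neil2-deficient EBs, giving a log2 fold change of 1.32 (SE 0.22, FDR 0.00618), and Dtx1, a modulator of the receptor, at 8.72, 9.89 and 11.5 CPM in the control clones and 38.2, 16.1 and 23.6 CPM in the Neil2 clones, giving a log2 fold change of 1.38 (SE 0.30, FDR 0.0186). The target Hey2 fell, giving a log2 fold change of −1.67 (FDR 0.0212). In the Hedgehog list 4 of 15 fell and 2 rose, with no rise without control clone #4 or Neil2 clone #14 and 1 without control clone #1, control clone #7 or Neil2 clone #11. Gas1, a co-receptor, was at 19.4, 19.15 and 15.7 CPM in controls against 3.59, 2.66 and 2.07 CPM in Neil2 clones, giving a log2 fold change of −2.70 (SE 0.24, FDR 0.000444), and Gli3, a transcriptional mediator, gave a log2 fold change of −1.43 (FDR 0.0028). The signal transducer Smo and the receptor Ptch1 were not called, with log2 fold changes of −0.43 (FDR 0.0546) and 0.31 (FDR 0.225). Of 22 retinoid genes 4 fell and 3 rose, and the number lowered was 2 without control clone #1, 1 without control clone #4 and 10 without Neil2 clone #1. The RA-synthesising enzyme gene Aldh1a3 was at 4.07, 3.15 and 0.849 CPM in control EBs and 0.804, 0.204 and 0.215 CPM in Neil2-deficient EBs, giving a log2 fold change of −2.65 (SE 0.68, FDR 0.0369), a call that was lost without control clone #1, control clone #4 or Neil2 clone #14 (log2 fold changes of −2.55 to −2.22 there). The carrier Crabp2 was at 14, 14.5 and 12.1 CPM in the control clones and 6.21, 4.91 and 3.66 CPM in the Neil2 clones, giving a log2 fold change of −1.45 (SE 0.23, FDR 0.00517), and the receptor Rarg at 92.4, 83.4 and 64.2 CPM in controls against 115, 146 and 129.7 CPM in Neil2 clones, giving a log2 fold change of 0.70 (SE 0.16, FDR 0.0238).

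Axon guidance genes, which also steer mesodermal and vascular cells, fell in 16 of 34 cases with none raised, and the median was −0.71. Robo2, a Slit receptor, was at 21.4, 18.4 and 4.92 CPM in control EBs and 0.68, 0.286 and 0.301 CPM in Neil2-deficient EBs, giving a log2 fold change of −5.08 (SE 0.63, FDR 0.0019), and Sema3a, a repulsive ligand, at 5.95, 6.07 and 3.96 CPM in the control clones and 0.216, 0.531 and 0.344 CPM in the Neil2 clones, giving a log2 fold change of −3.89 (SE 0.38, FDR 0.000682). The netrin receptor gene Unc5c was at 33.2, 28.4 and 14 CPM in controls against 0.247, 0.123 and 0.0861 CPM in Neil2 clones, giving a log2 fold change of −7.26 (SE 0.48, FDR 0.000111). Unc5b and Epha2, the receptors with the highest CPM in the list, gave log2 fold changes of −1.15 (FDR 0.0037) and −0.22 (FDR 0.566). Beside this result, genes of neurons did not fall as a list, as described next.

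Neuroectoderm genes moved both ways, with 6 raised and 5 lowered of 19, a median of 0.32, and a median of −0.03 without Neil2 clone #1. Without control clone #1 3 members were raised. Pax6, the paired-box factor of forebrain and eye and the study's neuroectoderm marker, was at 0.627, 1.04 and 0.919 CPM in control EBs and 3.06, 3.31 and 2.32 CPM in Neil2-deficient EBs, giving a log2 fold change of 1.77 (SE 0.31, FDR 0.00788). All Neil2 clones lay above all controls. Sox2, shared by pluripotent and neural cells, was at 283, 294 and 282 CPM in the control clones and 401, 562 and 528 CPM in the Neil2 clones, giving a log2 fold change of 0.80 (SE 0.15, FDR 0.0106), and Otx2, of anterior epiblast and forebrain, at 54.2, 46.3 and 54.2 CPM in controls against 122, 102 and 115 CPM in Neil2 clones, giving a log2 fold change of 1.13 (SE 0.13, FDR 0.00115). Fabp7, of radial glia, and Nkx6-1, of ventral progenitors, were scarce and gave log2 fold changes of −2.28 (FDR 0.0377) and −2.85 (FDR 0.0248), the former losing its call without control clone #1, control clone #4 or Neil2 clone #14 (log2 fold changes of −2.29 to −2.17 there). Neuronal genes were as divided, with 3 raised and 4 lowered of 17, and 5 raised without Neil2 clone #1. The RNA-binding protein gene Elavl3 was at 2.33, 3.30 and 3.22 CPM in control EBs and 14, 8.91 and 7.66 CPM in Neil2-deficient EBs, giving a log2 fold change of 1.80 (SE 0.29, FDR 0.00533), and Neurod1, a proneural factor, at 0.991, 0.63 and 0.884 CPM in the control clones and 1.85, 2.62 and 1.94 CPM in the Neil2 clones, giving a log2 fold change of 1.33 (SE 0.31, FDR 0.025), the latter without a call once control clone #4 (log2 fold change 1.18 there) was left out. Isl1, a LIM factor of motor neurons and second heart field mesoderm, was at 5.30, 5.04 and 4.42 CPM in controls against 0.618, 0.572 and 0.516 CPM in Neil2 clones, giving a log2 fold change of −3.10 (SE 0.26, FDR 0.000344). Lhx1, of the streak and of interneurons, and Gap43, of growing axons, gave log2 fold changes of −1.52 (FDR 0.0149) and −1.92 (FDR 0.00784). Ina, a neuronal intermediate filament gene, differed in sign between clones, at 41.1, 39.5 and 27.6 CPM in control EBs and 14.4, 70.1 and 67.1 CPM in Neil2-deficient EBs, with a log2 fold change of 0.48 (SE 0.48, FDR 0.578).

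Genes of naive pluripotency stood at higher levels in the Neil2 clones than in the controls. 16 of 27 tested members rose and none fell, the median was 0.67, and the number raised ranged from 10 without control clone #4 to 21 without Neil2 clone #1, with 10 also without Neil2 clone #14. In the fit without Neil2 clone #11, 1 member was lowered. Nr0b1, an orphan receptor of naive mESCs encoded on chromosome X, was at 43.6, 48.7 and 27.1 CPM in the control clones and 56.6, 133 and 123 CPM in the Neil2 clones, giving a log2 fold change of 1.39 (SE 0.33, FDR 0.0268), and lost its call without Neil2 clone #14 (log2 fold change 1.26 there). Its call was lost without the filter on low counts too (FDR 0.133). Tcl1, a co-activator of AKT, was at 11.1, 13.6 and 18.6 CPM in controls against 30.4, 39.6 and 37 CPM in Neil2 clones, giving a log2 fold change of 1.31 (SE 0.21, FDR 0.0054). Utf1, a chromatin factor of pluripotent cells, was at 123, 176 and 125 CPM in control EBs and 280.5, 255 and 385 CPM in Neil2-deficient EBs, giving a log2 fold change of 1.12 (SE 0.20, FDR 0.00946), and Dppa5a, an RNA-binding protein of mESCs, at 1415, 1554 and 1917 CPM in the control clones and 2653, 3179 and 2771 CPM in the Neil2 clones, giving a log2 fold change of 0.82 (SE 0.15, FDR 0.0102). For these genes all Neil2 clones lay above all controls. Pou5f1, the study's pluripotency marker, was at 398, 379 and 384 CPM in controls against 386, 805 and 722 CPM in Neil2 clones. Neil2 clone #1 lay within the control range and clones #11 and #14 above it, and the fold change of 0.72 (SE 0.24, FDR 0.0916) was kept in only 1 of 6 fits that left out 1 library, failing without control clone #1, control clone #4, control clone #7, Neil2 clone #11 or Neil2 clone #14 (log2 fold changes of 0.52 to 0.74 there). The RNA-binding protein gene Lin28a gave a log2 fold change of −0.36 (FDR 0.085). By clone, the list median stood at 0.21, 0.85 and 0.73. Over the list, summed transcripts were 5097, 5190.0 and 5594 CPM in the control clones and 6899, 9527 and 8482 CPM in the Neil2 clones.

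Of 18 genes of the formative and primed epiblast 3 rose and 3 fell. The number raised was 8 without Neil2 clone #1 and 1 without control clone #4, control clone #7 or Neil2 clone #14. Those lowered and named by the rule, T, the Wnt effector Lef1 and the receptor Fzd2, are also streak or Wnt genes, and Lef1 was at 104, 82.9 and 58.7 CPM in control EBs and 14, 32 and 33.6 CPM in Neil2-deficient EBs, giving a log2 fold change of −1.63 (SE 0.33, FDR 0.0147). Fzd2 lost its call without control clone #4, control clone #7 or Neil2 clone #14 (log2 fold changes of −0.90 to −0.73 there). The de novo methyltransferase gene Dnmt3b was at 472, 384 and 369 CPM in the control clones and 328, 535 and 497 CPM in the Neil2 clones, with a log2 fold change of 0.15 (SE 0.20, FDR 0.684), and the ETS factor Etv5 at 445, 391 and 387 CPM in controls against 389, 499 and 517 CPM in Neil2 clones, with a log2 fold change of 0.20 (SE 0.15, FDR 0.429).

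Germline and meiosis genes rose without a fall, 13 of 28 with a median of 0.67, and the number raised ranged from 7 without control clone #1 to 14 without Neil2 clone #1, with 7 also without control clone #4. Stra8, the RA-induced gene of meiotic entry, was at 1.84, 6.00 and 5.97 CPM in control EBs and 24.6, 30.5 and 14.7 CPM in Neil2-deficient EBs, giving a log2 fold change of 2.36 (SE 0.45, FDR 0.0115). The meiotic cohesin gene Smc1b was at 10.2, 12.7 and 21.7 CPM in the control clones and 58.6, 35.4 and 34.5 CPM in the Neil2 clones, giving a log2 fold change of 1.53 (SE 0.31, FDR 0.0149). Hormad1, of the chromosome axis, was at 13.1, 10.4 and 8.34 CPM in controls against 19, 45.3 and 25.2 CPM in Neil2 clones, giving a log2 fold change of 1.49 (SE 0.32, FDR 0.0185), and Mael, a piRNA pathway gene that silences transposons, at 27.5, 21.5 and 25.9 CPM in control EBs and 91.2, 46.6 and 48.1 CPM in Neil2-deficient EBs, giving a log2 fold change of 1.31 (SE 0.26, FDR 0.0132). All Neil2 clones lay above all controls for these genes. The members with the highest CPM, Tex19.1 and Tfap2c, gave log2 fold changes of 0.68 (FDR 0.0734) and 0.57 (FDR 0.0494), and in the fits that left out 1 library Tex19.1 passed only without Neil2 clone #1 and Tfap2c only without Neil2 clone #1 or #11.

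Of the 8 tested genes of the macrophage list 3 rose and none fell, and 13 of its 21 members were too low to test. Among those raised, the lysosomal membrane gene Laptm5 was at 17.3, 14.1 and 12.2 CPM in the control clones and 26.5, 25.9 and 27.7 CPM in the Neil2 clones, giving a log2 fold change of 0.88 (SE 0.16, FDR 0.0108). The defining genes Tyrobp and Ptprc were at or near 0 in every library, and Csf1r was at 1.82, 3.22 and 2.26 CPM in controls against 2.35, 1.43 and 2.24 CPM in Neil2 clones. Cd14, which also rose, stayed under 1 CPM.

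Endoderm differed little on average and greatly between clones. Of 31 visceral and definitive endoderm genes 1 was lowered and none raised. The gene lowered was Cxcr4, a chemokine receptor of definitive endoderm and mesoderm, at 33.7, 32.8 and 21.7 CPM in control EBs and 3.18, 3.23 and 4.60 CPM in Neil2-deficient EBs, giving a log2 fold change of −3.01 (SE 0.24, FDR 0.000287). Lrp2, an endocytic receptor of visceral endoderm, was at 136, 117 and 192 CPM in the control clones and 293, 126 and 163 CPM in the Neil2 clones, with a log2 fold change of 0.39 (SE 0.31, FDR 0.476). Its partner Cubn was at 140.4, 79.9 and 174 CPM in controls against 300.0, 54.3 and 105 CPM in Neil2 clones, with a log2 fold change of 0.22 (SE 0.54, FDR 0.846). Neil2 clone #1 lay above all controls for both and clone #11 below all controls for Cubn. Gata6, the study's endoderm marker, was at 21, 22.3 and 20.2 CPM in control EBs and 24.1, 7.56 and 13.1 CPM in Neil2-deficient EBs, with a log2 fold change of −0.50 (SE 0.35, FDR 0.413). Of 25 parietal endoderm and basement membrane genes 5 fell and 1 rose, the falls named by the rule being the keratins given above. Sparc, a matrix protein of parietal endoderm, was at 574, 597 and 691 CPM in the control clones and 1118, 379 and 573 CPM in the Neil2 clones, with a log2 fold change of 0.15 (SE 0.33, FDR 0.822). Without Neil2 clone #1, 9 genes of each endoderm list were lowered. Without clone #11, 3 visceral and 5 parietal endoderm genes were raised.

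The repair pathway to which NEIL2 belongs showed no DE gene among 22 tested members, with a median of −0.073, and 1 member passed once Neil2 clone #1 was left out. Of the members with the highest CPM, Parp1, the DNA break sensor, was at 529, 484 and 578 CPM in controls against 582, 679 and 665 CPM in Neil2 clones, with a log2 fold change of 0.28 (SE 0.13, FDR 0.208). Lig1, a DNA ligase, was at 234, 240.4 and 255 CPM in control EBs and 178, 261 and 244 CPM in Neil2-deficient EBs, with a log2 fold change of −0.10 (SE 0.16, FDR 0.755). Tdg was at 175, 173 and 175 CPM in the control clones and 135, 171 and 165 CPM in the Neil2 clones, with a log2 fold change of −0.15 (SE 0.13, FDR 0.496). Of 11 genes of DNA methylation and its removal 4 rose and none fell. Tet2 was at 35.8, 33.6 and 30.1 CPM in controls against 44.4, 78.5 and 52.6 CPM in Neil2 clones, giving a log2 fold change of 0.82 (SE 0.21, FDR 0.0341). Dnmt3a, Dnmt3l and Tet1 gave log2 fold changes of 0.65 (FDR 0.0451), 0.62 (FDR 0.0279) and 0.61 (FDR 0.0677). No gene of this list passed without control clone #4 or #7, 2 passed without control clone #1 and 1 passed without Neil2 clone #14, and 5 rose and 1 fell without Neil2 clone #1.

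Stress and survival genes moved modestly. Of 34 p53 targets 6 rose and none fell, and the median was 0.12. Gdf15, a secreted stress cytokine, was at 0.93, 1.89 and 1.10 CPM in control EBs and 5.38, 3.92 and 6.20 CPM in Neil2-deficient EBs, giving a log2 fold change of 2.0 (SE 0.34, FDR 0.00668), the X-linked receptor gene Eda2r gave a log2 fold change of 1.48 (FDR 0.0046), and the kinase gene Plk3 1.12 (FDR 0.00245). The pro-apoptotic Bbc3 was at 29, 41.4 and 25.1 CPM in the control clones and 53.2, 39.1 and 56.7 CPM in the Neil2 clones, giving a log2 fold change of 0.64 (SE 0.21, FDR 0.0881), with overlapping groups and no call without control clone #1, control clone #7, Neil2 clone #1 or Neil2 clone #14 (log2 fold changes of 0.50 to 0.58 there). The target Ccng1, a cyclin G, gave a log2 fold change of 0.091 (FDR 0.746). In the BCL2 family Bcl2 and Mcl1, both anti-apoptotic, gave log2 fold changes of −1.05 (FDR 0.0472) and 0.55 (FDR 0.0372), and the list held 2 rises and 1 fall among 15. No BCL2 family gene passed without control clone #1. Bcl2 lost its call without control clone #1, control clone #4, control clone #7 or Neil2 clone #14 (log2 fold changes of −1.14 to −0.92 there), and Mcl1 without control clone #1, control clone #4 or Neil2 clone #1 (log2 fold changes of 0.46 to 0.52 there). In the NRF2 and oxidative stress list 5 of 25 rose and none fell. Gpx4, the peroxidase that reduces lipid hydroperoxides, was at 642, 849 and 657 CPM in controls against 1534, 1577 and 1694 CPM in Neil2 clones, giving a log2 fold change of 1.16 (SE 0.14, FDR 0.00197), and the X-linked G6pdx, which makes NADPH, gave a log2 fold change of 1.08 (FDR 0.00584). Of the list 2 passed without control clone #1 or #4 and 3 without Neil2 clone #14.

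Nuclear genes of the respiratory chain (32 tested) and of proliferation (21 tested) held no DE gene, with medians of 0.038 and 0.074, and no more than 1 of either list passed in any fit that left out a library. Atp5b of the ATP synthase and the topoisomerase gene Top2a, high in CPM in their lists, gave log2 fold changes of 0.17 (FDR 0.512) and 0.24 (FDR 0.273). The 13 protein-coding genes of mitochondrial DNA were listed at 0 in every library and were not tested. Of 10 D cyclin and CDK inhibitor genes, Cdkn2a rose, from 14.9, 22.2 and 15.7 CPM to 41.6, 41.7 and 57.2 CPM, giving a log2 fold change of 1.41 (SE 0.20, FDR 0.0035), and Ccnd2 fell, giving a log2 fold change of −0.58 (FDR 0.099), a call lost without control clone #1, control clone #7, Neil2 clone #11 or Neil2 clone #14 (log2 fold changes of −0.60 to −0.41 there). Of 20 interferon response genes 4 fell and 1 rose, and none rose in the fits that left out a control clone or Neil2 clone #14. Usp18, a brake on interferon signalling, was at 2.69, 4.15 and 6.58 CPM in control EBs and 0.34, 0 and 0.215 CPM in Neil2-deficient EBs, giving a log2 fold change of −4.49 (SE 0.67, FDR 0.00419), and the ubiquitin-like Isg15 at 4.59, 7.55 and 12.9 CPM in the control clones and 0.989, 0.531 and 1.72 CPM in the Neil2 clones, giving a log2 fold change of −2.95 (SE 0.50, FDR 0.00674). Of 16 immediate early genes 5 fell and none rose, against 3 falls and 1 rise without control clone #4 and 8 falls without Neil2 clone #1. Fosl2 was at 21.9, 30.1 and 26.1 CPM in controls against 8.07, 2.90 and 5.34 CPM in Neil2 clones, giving a log2 fold change of −2.25 (SE 0.33, FDR 0.00385), and Egr1 at 29, 32 and 30.3 CPM in control EBs and 12, 4.99 and 11.7 CPM in Neil2-deficient EBs, giving a log2 fold change of −1.67 (SE 0.30, FDR 0.00862).

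Imprinted genes fell in 10 of 26 cases with none raised, and the median was −1.05. The number lowered was 6 without Neil2 clone #14 and 5 without the filter on low counts, and 1 gene rose without control clone #1. Peg10, a retrotransposon-derived gene of the placenta, was at 2597, 4785 and 3863 CPM in the control clones and 1050.0, 910.3 and 973 CPM in the Neil2 clones, giving a log2 fold change of −1.94 (SE 0.21, FDR 0.00113). Phlda2, a growth-limiting gene, was at 98.4, 49.2 and 57.9 CPM in controls against 12.2, 9.48 and 23.4 CPM in Neil2 clones, giving a log2 fold change of −2.19 (SE 0.37, FDR 0.00676). Several other members differed widely among the controls, and control clone #1 stood apart. The growth factor gene Igf2 was at 1744, 314 and 284 CPM in control EBs and 58.1, 33.5 and 170.4 CPM in Neil2-deficient EBs, giving a log2 fold change of −3.16 (SE 0.83, FDR 0.0404), a call lost without control clone #1 or Neil2 clone #1 (log2 fold changes of −2.94 to −1.78 there). The non-coding H19 of the same cluster was at 516, 5607 and 3122 CPM in the control clones and 2323, 1327 and 798 CPM in the Neil2 clones, and its log2 fold change of −1.06 (SE 0.70, FDR 0.384) did not pass. Mest, a gene of mesoderm and placenta, was at 87.2, 555 and 315 CPM in controls against 63.2, 74.8 and 42.7 CPM in Neil2 clones, giving a log2 fold change of −2.40 (SE 0.56, FDR 0.025), which did not pass without Neil2 clone #1 or Neil2 clone #14 (log2 fold changes of −2.46 to −2.21 there). Nnat, a membrane protein of the developing brain, was at 5.72, 50.9 and 37.5 CPM in control EBs and 3.77, 5.27 and 2.50 CPM in Neil2-deficient EBs, giving a log2 fold change of −3.02 (SE 0.69, FDR 0.0234), which did not pass without Neil2 clone #1 or Neil2 clone #14 (log2 fold changes of −3.02 to −2.79 there). The calls of Igf2, Mest and Nnat were also lost without the filter on low counts (FDR 0.266, 0.199 and 0.19). Control clone #1 was thus high for Igf2 and low for H19, Mest and Nnat.

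The genes with the strongest rises lay mainly on chromosome X. Among the 8 largest rises named by the rule, 7 were X-linked. The largest was that of Xist, the non-coding RNA that coats an inactive X chromosome, at 1.72, 1.96 and 1.49 CPM in the control clones and 16.1, 13.4 and 21.9 CPM in the Neil2 clones, giving a log2 fold change of 3.31 (SE 0.25, FDR 0.000203). That all Neil2 clones lay above all controls was a condition of the choice of these 8 genes. Xist overlaps its antisense gene Tsix, and reads of both strands cannot be told apart here. Its log2 fold change was 1.29 (SE 0.26, FDR 0.0781) in mESCs and 4.45 (SE 0.39, FDR 0.000334) in EBs + RA. Efhc2, which encodes an EF-hand protein, was at 1.64, 2.30 and 4.46 CPM in controls against 32.5, 23.5 and 12.8 CPM in Neil2 clones, giving a log2 fold change of 3.06 (SE 0.44, FDR 0.00367). Pnma5, of a family of paraneoplastic antigens, was at 12.7, 11.9 and 20.7 CPM in control EBs and 100.4, 84.8 and 73.8 CPM in Neil2-deficient EBs, giving a log2 fold change of 2.52 (SE 0.23, FDR 0.000514). The testis-expressed Tsx, which lies next to Xist, was at 1.38, 1.37 and 1.63 CPM in the control clones and 7.61, 8.67 and 8.00 CPM in the Neil2 clones, giving a log2 fold change of 2.47 (SE 0.22, FDR 0.000438), and the gap junction gene Gjb1 at 0.991, 1.52 and 2.05 CPM in controls against 7.14, 11.1 and 9.90 CPM in Neil2 clones, giving a log2 fold change of 2.64 (SE 0.32, FDR 0.00174). Pnma3 and Xlr3a, the latter one of several near-identical copies whose reads may be shared, gave log2 fold changes of 2.46 (FDR 0.000781) and 2.50 (FDR 0.0262). Xlr3a did not pass without the filter on low counts (FDR 0.182). The autosomal gene among the 8 was Col9a2, a cartilage collagen on chromosome 4, at 12.1, 15.3 and 14.1 CPM in control EBs and 54, 93.1 and 77.3 CPM in Neil2-deficient EBs, giving a log2 fold change of 2.44 (SE 0.21, FDR 0.000399). Of 572 tested X-linked genes 146 were raised (25.5%) and 75 lowered (13.1%), against 8.65% and 7.69% over all genes. In windows of 10 Mb with at least 15 genes of 5 CPM or more, the median difference from the control mean was 0.66, 1.01 and 0.89 in the Neil2 clones at X:70-80 Mb (48 genes), 0.48, 1.00 and 0.73 at X:90-100 Mb (44 genes) and 0.55, 0.92 and 0.70 at X:100-110 Mb (26 genes). It was −0.35, −0.62 and −0.59 at X:40-50 Mb (20 genes), so that raised and lowered stretches were shared by all 3 clones. From these counts a difference in copy number or between alleles cannot be told apart from one in transcription, which also holds for the X-linked Nr0b1, Eda2r and G6pdx above. Over the whole chromosome the medians were −0.01, 0.24 and 0.03, and those of all other chromosomes lay within 0.17 of 0 in each library. Without chromosomes X and Y 2293 genes were DE, 1192 raised and 1101 lowered.

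**Figure D3:**
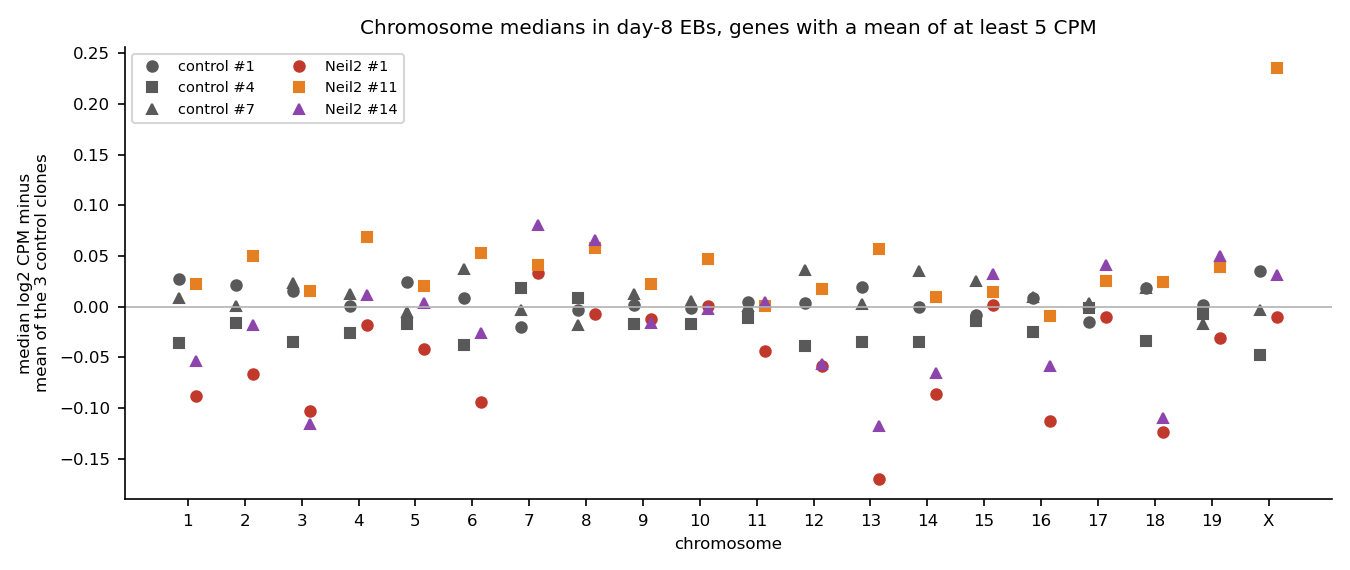
Median log2 CPM difference from the mean of the control clones for each chromosome and library, over genes averaging 5 CPM or more. The autosomes lie within 0.17 of 0 in every library, and Neil2 clone #11 lies at 0.24 for chromosome X.

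The Neil2 clones varied more among themselves than the controls did. Over 10828 genes of at least 5 CPM, the SD over genes of the log2 difference between libraries was 0.23 to 0.32 for pairs of controls. It was 0.61 between Neil2 clones #1 and #11, 0.46 between #1 and #14 and 0.32 between #11 and #14. The median SD across clones was 0.23 in the Neil2 group and 0.12 in the controls, and 8365 genes (77.3%) had the larger SD in the Neil2 group. Neil2 clone #1 was the most distant of the clones for 52.1% of genes, clone #11 for 31.4% and clone #14 for 16.5%. The first principal component (63.4% of variance) separated the groups, and the second (24.3%) ran from Neil2 clone #1 at −36.2 through clone #14 at 6.58 to clone #11 at 25.5, with the controls between −8.92 and 9.02.

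**Figure D4:**
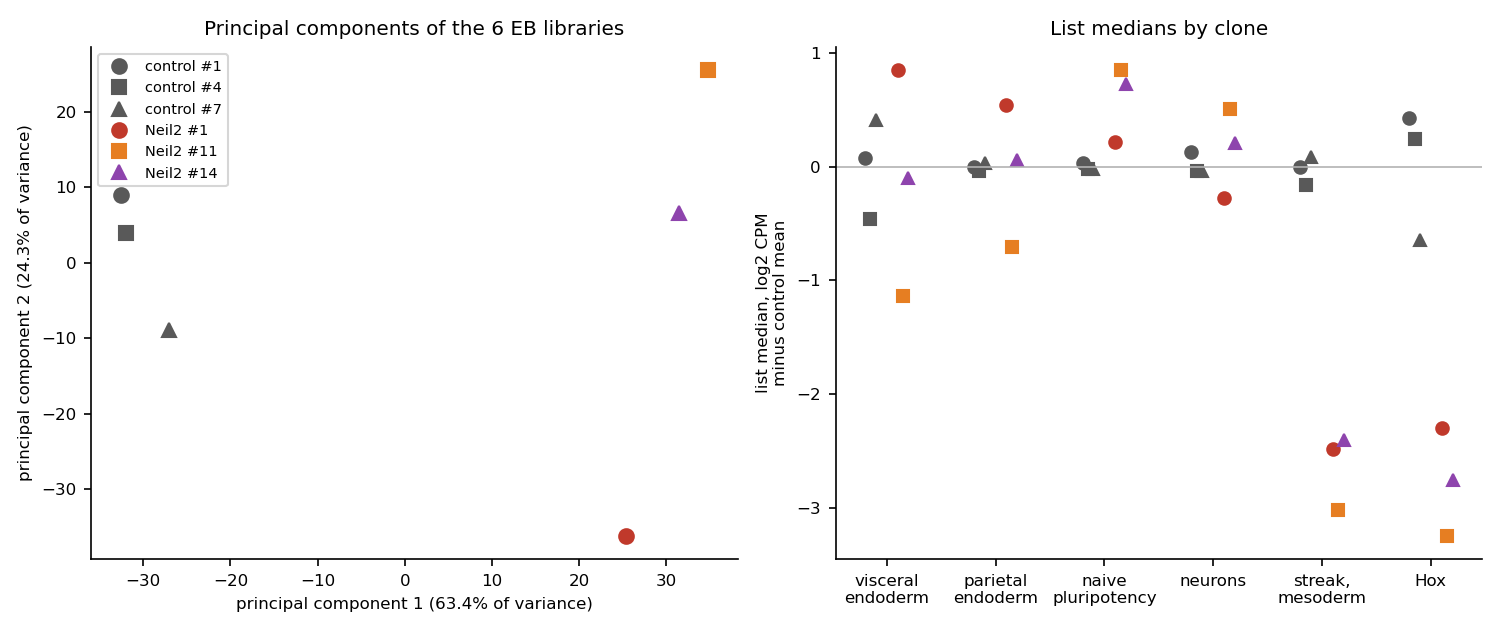
Left, scores of the 6 EB libraries on the first and second principal components of log2 CPM; right, median log2 CPM difference from the control mean over 6 gene lists, with 1 point per library. The Neil2 clones share a side of the first component and differ on the second, and they spread most for visceral endoderm (0.85, −1.14 and −0.10) while all lie below −2 for streak and Hox genes.

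A core of changes was common to the clones. Of 10828 genes, 833, 965 and 744 lay more than 1 log2 unit from the control mean in Neil2 clones #1, #11 and #14, and 356 did so in all of them. Only in clone #1, #11 or #14 did 370, 340 and 81 genes do so. A single control set against the other controls gave 39, 35 and 78 such genes. The DE genes that rose had median differences of 0.87, 0.92 and 0.97 in the clones, and those that fell −1.07, −1.41 and −1.27. By these medians clone #1 lay nearest the controls in both directions, but the DE genes were called from the same clones. Over all 10828 genes clone #14 had the fewest beyond 1 log2 unit. Clone #1 had the most above the control mean by that amount, 440 against 343 in clone #11 and 323 in clone #14. The clones parted most over endoderm. For the visceral endoderm list the medians were 0.85, −1.14 and −0.10 in Neil2 clones #1, #11 and #14 and 0.078, −0.46 and 0.41 in the controls, with summed transcripts of 984, 699 and 1302 CPM in the control clones and 1666, 419.8 and 929.8 CPM in the Neil2 clones. For parietal endoderm they were 0.54, −0.71 and 0.061. Naive pluripotency genes ran the other way, at 0.21, 0.85 and 0.73, as did neuronal genes at −0.27, 0.50 and 0.21 and formative epiblast genes at −0.27, 0.51 and 0.40. Whether the share of endoderm in clone #1 had a part in its smaller medians over the DE genes was not tested.

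The genes with the largest SD between the Neil2 clones included genes of endoderm. The apolipoprotein gene Apoc2 was at 27.6, 9.59 and 32.7 CPM in the control clones and 41, 5.48 and 17.4 CPM in the Neil2 clones. Neither group was uniform for it. Slc13a4, a sulphate transporter, was at 8.47, 4.26 and 12.1 CPM in controls against 11.9, 1.55 and 3.18 CPM in Neil2 clones, and Notum, an extracellular inhibitor of Wnt ligands, at 23.4, 20.7 and 9.51 CPM in control EBs and 4.17, 25.9 and 23.1 CPM in Neil2-deficient EBs. Notum was low in Neil2 clone #1 alone. Ctcfl, a testis paralogue of CTCF, was at 4.25, 3.48 and 6.40 CPM in the control clones and 13.3, 3.88 and 1.76 CPM in the Neil2 clones. None of these passed in the comparison. Prdm6, a repressor of smooth muscle and vascular precursors, was at 37.8, 33.6 and 28.3 CPM in controls against 7.11, 0.695 and 2.11 CPM in Neil2 clones and was DE with a log2 fold change of −3.29 (SE 0.62, FDR 0.0114), being lower in all Neil2 clones by different amounts. Its call was lost without the filter on low counts (FDR 0.123).

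In mESCs of the same clones 286 of 15615 genes were DE (1.83%), 219 raised (1.4%) and 67 lowered (0.429%). The lists with more than 1 member called in the same direction there were mesenchymal matrix (3 of 21 lowered), caudal identity (2 of 15 lowered), Wnt (2 of 33 lowered), axon guidance (2 of 30 lowered) and germline (3 of 28 raised). The neuronal (17 tested), EMT (23 tested) and D cyclin and CDK inhibitor (10 tested) lists each had 1 member raised and 1 lowered. None of the streak, Hox, BMP, naive pluripotency or crest lists had more than 1 member called there, and their medians were −0.11, 0.33, 0.13, −0.027 and −0.19. A test of the difference between the EB and the mESC effect, with the clone as a block, passed for 982 of 16387 genes (5.99%), 404 with the higher (2.47%) and 578 with the lower value in EBs (3.53%). Without Neil2 clone #14, control clone #4 or control clone #1 it passed for 153, 268 and 423 genes. Of genes called at both stages, 150 in number, 131 had the same sign, out of 286 in mESCs and 2545 in EBs. Among the list members DE in EBs with the largest terms, Pax6 had a log2 fold change of −1.21 (SE 0.22, FDR 0.0618) in mESCs against 1.77 in EBs, Stra8 −0.084 (SE 0.29, FDR 0.919) against 2.36, and Inhbb −0.32 (SE 0.16, FDR 0.371) against 2.19.

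**Figure D5:**
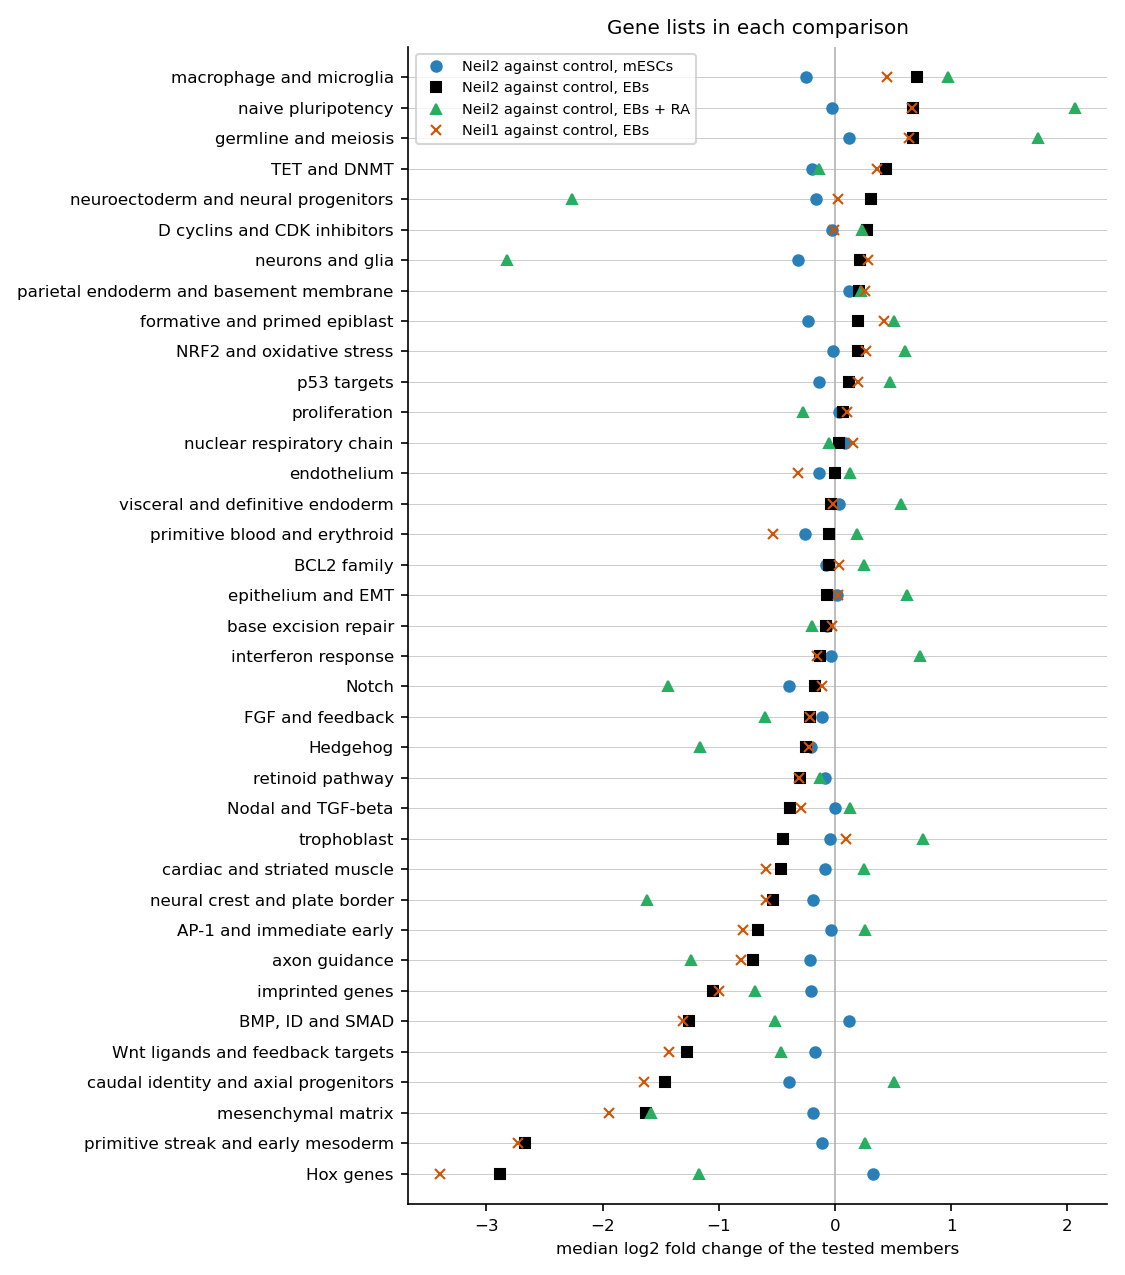
Median log2 fold change of the tested members of each gene list for Neil2 against control in mESCs, EBs and EBs + RA, and for Neil1 against control in EBs, which share the EB controls with the Neil2 comparison. In EBs + RA the neuronal and neuroectoderm lists lie below −2 while they lie slightly above 0 in EBs, and streak and caudal genes lie near or above 0.

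With 5 µM RA from day 4, 5601 of 16055 genes were DE (34.9%). Genes raised were 18.3% and genes lowered 16.6% of those tested. The crest, matrix and Hox lists were lowered in EBs + RA too, in 22 of 36, 20 of 27 and 20 of 34 members with medians of −1.62, −1.58 and −1.17, and 12 Hox genes rose. Other lists differed in value between both conditions. Of the neuronal list 17 of 20 were lowered there, with a median of −2.82 against 0.22 in EBs, and of the neuroectoderm list 17 of 25, with −2.26 against 0.32. Streak genes had 7 rises and 7 falls among 20, and their median was 0.26 against −2.67. Naive pluripotency genes rose in both, with 22 of 27 raised and a median of 2.07 in EBs + RA. The test of the difference between both effects passed for 4163 of 16757 genes (24.8%), 2025 with the higher (12.1%) and 2138 with the lower value in EBs (12.8%). Without control clone #1, control clone #4 or Neil2 clone #14 it passed for 2268, 2270 and 2390 genes. Pax6 had −3.85 (SE 0.38, FDR 0.000472) in EBs + RA against 1.77 in EBs, Neurod1 −3.74 (SE 0.38, FDR 0.000559) against 1.33, Elavl3 −2.75 (SE 0.27, FDR 0.000482) against 1.80, and Hoxd10 2.56 (SE 0.50, FDR 0.00658) against −6.10.

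Neil1-deficient EBs were measured against the same control clones, and 3634 of 15479 genes were DE there (23.5%). The values are given side by side only, since shared controls move both comparisons together. The median log2 fold changes in Neil2 and Neil1 EBs were −2.67 and −2.73 for streak genes, −2.89 and −3.40 for Hox genes, −1.27 and −1.43 for Wnt genes, −1.26 and −1.31 for BMP genes, and 0.67 and 0.66 for naive pluripotency genes. A direct test between the mutants, in which the controls played no part, called 0 of 15294 genes in edgeR, with 735 at an unadjusted p below 0.05, and 1 gene in DESeq2. With 3 clones a group this does not show that the mutants were alike.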

How the data were processed

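RNA was sequenced as 51-cycle reads from unstranded TruSeq libraries on an Illumina HiSeq. Reads were aligned by the authors with TopHat2 2.0.9 (Bowtie2 2.1.0) to the mouse build NCBIM37 and counted per Ensembl gene with HTSeq-count 0.5.4, and the deposited values are raw counts, of which 6.77% to 8.06% fell on no gene and 2.18% to 2.41% were ambiguous. Of 37991 IDs 37205 matched the build's annotation, which gave symbols and positions. Antisense and overlapping genes cannot be separated without strand.

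Counts of the 6 EB libraries were tested with edgeR 4.0.16 in R 4.3.3 (robust quasi-likelihood, filterByExpr, TMM, Benjamini-Hochberg adjustment), and fold changes are on the log2 scale. Effects in EBs were set against those in mESCs and in EBs + RA by an interaction term with the clone as a block, called at FDR below 0.1. Differences between libraries used log2 CPM with a prior count of 2. The SE is the absolute log2 fold change divided by the square root of the F statistic of the quasi-likelihood test, so it includes variation between clones. The floor of 3 counts covers counting error only. The gene lists and the members were chosen with earlier results of these data known, and no list was tested as a set. Genes named were drawn from Neil2, the study's markers, the 8 largest rises and falls of called genes that do not overlap between groups with mean log2 CPM of at least 2, the largest called changes (up to 4) and the 2 members highest in control CPM of each of 38 lists, and the 6 genes most variable between Neil2 clones. The 3 largest interaction terms each way were taken only from list members that were DE in EBs and passed the interaction's FDR limit. Wnt3, Axin2, Id1, Id3, Pecam1, Cdh1 and Tdg were added after their values were seen. 3 genes named by these rules are not reported here. 10 list genes, among them Sox1 and Map2, were not analysed here. In simulated counts with 200 genes changed by a log2 fold change of 2, the EB comparison recovered 200 and called 25 unchanged genes of 15597 tested. The simulation gave every gene the same dispersion, changed only genes with ample counts and set no clone apart. It therefore does not show how genes with few counts, smaller changes or a deviating clone fare. Chi-square tests found more than sampling noise between all replicates, so none was counted as a duplicate. Alternatives were DESeq2 1.42.0, other size factors, filters, limits and sample sets, a replicate block, and each library left out.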

Additional observations from a re-analysis of the deposited data

Results flagged for a closer look

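The effect of Neil2 loss differed between EBs and mESCs of the same clones for 982 genes by a test of the difference itself, edgeR's interaction term with the clone as a block. Of the list members DE in EBs with the largest terms, those with the higher value in EBs were Pax6, with a difference of 2.98 between the log2 effects, Stra8 with 2.51 and Inhbb with 2.39. Those with the lower value in EBs were the BMP ligand Bmp5 with −12.49, Hand2 with −7.84 and Hoxc8 with −7.01. Bmp5 had no count in the Neil2 EBs, and its term depends on the prior count, gives no bound and did not pass in DESeq2 (FDR 0.455) or without control clone #4, Neil2 clone #1 or Neil2 clone #14. The term of Hoxc8 did not pass without control clone #4 (FDR 0.112), Neil2 clone #11 (0.103) or Neil2 clone #14 (0.115), nor that of Inhbb without Neil2 clone #14 (0.119).

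Between EBs and EBs + RA the effect differed for 4163 genes by the same test. Of the list members DE in EBs with the largest terms, Pax6 had a difference of 5.59, Neurod1 of 5.05 and Elavl3 of 4.48, with the higher value in EBs without RA. Hoxc11 had −8.87, Hoxd10 −8.56 and Hoxa11 −7.64. The EBs of both kinds came from the same clones and were split on day 4, so the libraries of a clone are not independent of each other.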

How the results depend on the processing

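Of the 165 genes followed through every alternative 133 were DE, and none of these changed sign. Of the 32 others 9 changed sign in some alternative, and 6 reversed in the fits that left out 1 library. Log2 fold changes over those fits ranged from −0.096 to 0.6995 for Neil2, −0.75 to 0.87 for Ctcfl, −0.74 to 0.62 for Cubn, −0.057 to 0.62 for Lrp2, −0.41 to 0.43 for Notum and −0.40 to 0.45 for Sparc, with the sign opposite to that in all 6 libraries once Neil2 clone #1 was left out. 22 of the 133 DE genes lost the call in some fit without 1 library and 15 in another alternative, 10 of them with the replicate block. The comparison gave 2948 DE genes in DESeq2, 1878 at FDR below 0.05, 2676 without a filter and 2211 with at least 10 counts in every library. In the fits that left out 1 library it gave 1407 to 3705 (657 to 1661 raised, 743 to 2044 lowered). Same-numbered replicates did not deviate together (r of −0.37, −0.02 and −0.45), so their numbers were not taken as pairs. With the replicate number as a block 2029 genes were DE, 992 raised and 1037 lowered, 5 imprinted genes were lowered instead of 10, no BCL2 family gene was DE, and the medians of BMP (−1.35) and NRF2 (0.16) moved by more than the SD between the Neil2 clones. Larger shifts within that SD were those of cardiac (−0.70), visceral endoderm (−0.24), parietal endoderm (0.07), retinoid (−0.43) and imprinted genes (−0.86).

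For the interaction with mESCs 500 genes passed at FDR below 0.05 (164 higher and 336 lower in EBs), 610 were higher in DESeq2, and without the clone as replicate block 1703 passed (774 higher, 929 lower). Leaving out a clone gave 153 to 1174 (25 to 546 higher, 128 to 686 lower). For the interaction with RA the fit without the replicate block gave 2581 (1338 higher, 1243 lower), and leaving out a clone 2268 to 5176 (1162 to 2171 higher, 1106 to 3030 lower). Between the mutants DESeq2 and the fit without a filter each called 1 gene.

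Requiring 10 counts in every library drops genes near 0 in the Neil2 clones, which left 8 Hox, 10 streak, 10 matrix and 6 caudal genes lowered, and the list medians became −1.72 for streak, −1.45 for Hox, −0.85 for caudal, −1.27 for matrix, −0.87 for Wnt, −1.12 for BMP, −0.50 for axon guidance, −0.0089 for interferon, 0.64 for neuroectoderm and 0.41 for macrophage genes. The caudal median was −0.91 in DESeq2, −0.92 without a filter, and −0.89 both with all EB genotypes in the fit and without chromosomes X and Y. The blood median was −0.60 in DESeq2 and −0.64 without a filter, the macrophage median 1.00 in DESeq2 and 0.88 with all EB genotypes, and the repair median −0.093 without a filter and −0.046 without X and Y.

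Leaving out each library gave list medians of −0.89 to −0.37 for neural crest, −0.035 to 0.30 for neuroectoderm, −3.71 to −2.61 for Hox, −1.52 to −0.86 for caudal, −1.08 to −0.31 for cardiac, −0.33 to 0.062 for blood, 0.41 to 0.88 for macrophage, −1.84 to −1.47 for matrix, −0.29 to 0.087 for EMT, −1.65 to −1.06 for Wnt, −1.64 to −1.02 for BMP, −0.205 to 0.12 for Notch, −0.44 to −0.16 for Hedgehog, −0.084 to −0.047 for base excision repair, 0.26 to 0.51 for TET and DNMT, −0.096 to −0.017 for BCL2, 0.14 to 0.26 for NRF2 and −1.17 to −0.79 for imprinted genes. At 1 CPM instead of 5 CPM, the chromosome medians of Neil2 clone #1 were −0.021, 0.032, 0.059, 0.017, 0.023, 0.032 and 0.018 for chromosomes 1, 4, 7, 9, 11, 15 and 19, and that of clone #11 −0.0023 for chromosome 17. The cause of these shifts was not tested. Genes under about 1 CPM carry few counts in libraries of this depth, and 3 clones per group limit what can be called.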
